A study of Mus musculus with 3 samples.

Results

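The genes described here are 10 genes of macrophage lipid handling, several of them targets of the liver X receptor (LXR). They were chosen by name, with earlier results of these data known, as Apoe, Lpl, Abca1, Abcg1, Nr1h3, Pparg, Cd36, Fabp4, Fabp5 and Pltp. All 10 were found once each among the 16072 named genes of the expression table. Expression was measured by RNA-seq in bone marrow (BM) cells that the labels call Ly6G+ myeloid cells, from C57BL/6 mice that carried B16.F10 melanoma under the skin, implanted 1 week before the vector. Of the 3 libraries, 2 came from mice given the empty vector AAV-Ctrl and 1 from a mouse given AAV-IL-27, injected into muscle. Collection was 3 weeks after the vector if these are the BM cells that the study names Gr-1+, which is inferred and not stated by the labels. The vector, an adeno-associated virus, expresses murine IL-27 from the CAG promoter, which is active in most cell types. Mice of the study were 6 to 10 weeks old and of either sex, matched within an experiment. The labels speak of 4 mice but list 2 with AAV-Ctrl and 1 with AAV-IL-27, so each library is taken as 1 mouse. Tumour cells were present in both groups, and no tumour-free mouse was analysed here. The AAV-Ctrl libraries are called controls 1 and 2, and the AAV-IL-27 library the IL-27 library.

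Macrophages take up large amounts of lipid when they engulf dying cells, and 2 nuclear receptors govern how that lipid is stored or exported. LXR, activated by oxidised cholesterol, raises genes that move cholesterol out of the cell onto lipoproteins. PPARγ, activated by fatty acids, raises genes for the uptake and intracellular transport of fatty acids, and LXR alpha itself is among its targets in macrophages. In the BM, macrophages of the erythroid island clear the nuclei that red cell precursors expel and the neutrophils that age there. Most of these genes are not specific to macrophages. Adipocytes, stromal cells and endothelium use Pparg, Lpl, Cd36 and Fabp4 too, red cell precursors and platelets carry Cd36, and several LXR targets are active in other leukocytes.

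In the IL-27 library 4 of the 10 genes were lower, and the other 6 lay nearer to the controls. Cd36, Pparg, Lpl and Fabp4 were at 11.5%, 27.6%, 32.7% and 37.5% of the control mean. Abca1, Apoe and Nr1h3 were at 57.0%, 64.2% and 65.1%, Fabp5 and Pltp at 85.3% and 88.3%, and Abcg1 at 109.0%. Values are FPKM, that is, fragments counted on a transcript after scaling to its length and to the depth of the library. A difference is log2(FPKM + 1) under IL-27, less the control mean on the same scale, a scale on which changes of weakly expressed genes look smaller than they are. With 1 IL-27 library analysed there is no replicate error for that group (a column headed as another IL-27 library fits no listed sample and was left out), so no test was run, and each difference is set beside the one separating the controls. A gene is called lower if its value was below that of each control by 1 log2 unit or more, and higher if above each by as much. By that measure 4 of the 10 genes were lower, against 2.32% of the 9130 genes whose mean FPKM was 1 or more, and 0 of 10 were higher, against 0.307%. By any amount, 9 of 10 lay below both controls, against 41.9% of all genes, and 1 of 10 lay above both, against 38.9%. Because the genes were chosen with earlier results of these data known, an excess over all genes is not independent support. The median difference was -0.58 over the 10 genes and -0.01 over the 9130, and the controls differed by a median of -0.07 over the 10 genes. In bulk RNA, fewer cells of a type and less RNA in each cell cannot be told apart.

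**Figure D1:**
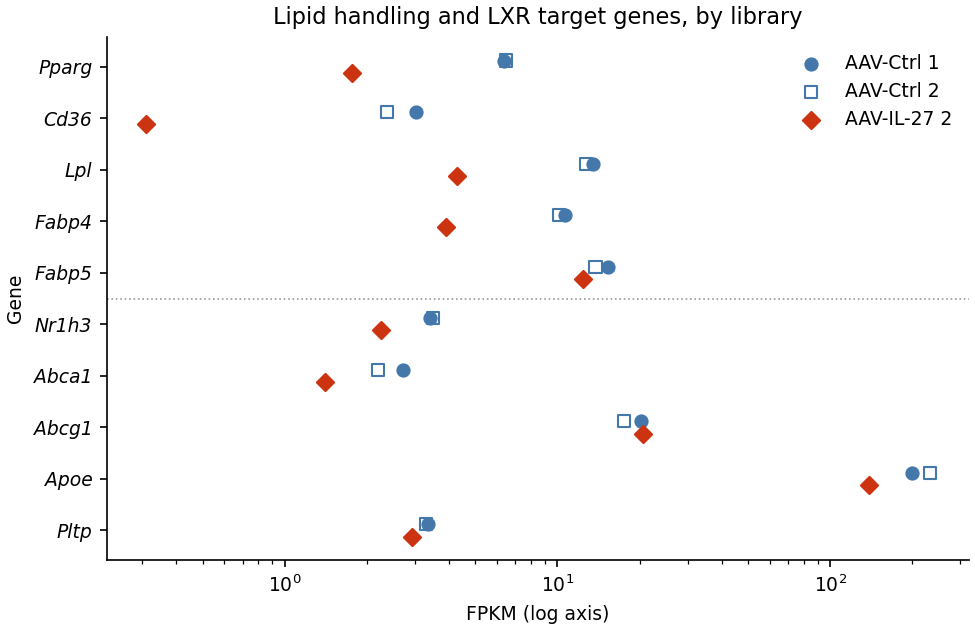
FPKM (horizontal log axis) of each gene (rows), 1 symbol per library, with genes of PPARγ and fatty acid handling above the dotted line and genes of LXR and cholesterol efflux below it. Blue symbols are the controls and red diamonds the IL-27 library, which lies furthest to the left of the blue symbols for Cd36, at 0.31 FPKM against 3.04 and 2.37.

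The levels span a wide range. FPKM is scaled to transcript length, so levels of different genes can be set side by side. Apoe, at 215.7 ± 22.3 FPKM (SD, n = 2) in the controls, stood at rank 298 of all named genes and made up 71.8%, 76.3% and 73.6% of the summed FPKM of the 10 genes in control 1, control 2 and the IL-27 library. The others followed in the order Abcg1, Fabp5, Lpl, Fabp4, Pparg, Nr1h3, Pltp, Cd36 and Abca1, which ended at rank 7607 with 2.46 ± 0.361 FPKM (SD, n = 2). The control values of neighbours in this order overlapped only for Cd36 and Abca1. Without Apoe, the sum was 78.4 and 72.0 FPKM in the controls and 49.8 under IL-27.

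Pparg (NCBI Gene 19016, chromosome 6 from 115360879 to 115490404, GRCm38), which encodes the receptor PPARγ, had 6.34 and 6.47 FPKM in controls 1 and 2 and 1.77 under IL-27. The control values lay close together and the IL-27 value far below both, a log2 difference of -1.42 against 0.03 between the controls. The depth was estimated at 19500000 fragments in control 1, 19900000 in control 2 and 19500000 under IL-27, at which Pparg rested on an estimated 209, 217 and 58 fragments. The 95% exact Poisson intervals, which cover counting error only, were 181.6 to 239.3, 189.1 to 247.9 and 44.0 to 75.0.

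Cd36 (NCBI Gene 12491, chromosome 5 from 17781690 to 17888959), a receptor for fatty acids and oxidised lipoproteins, was at 3.04 and 2.37 FPKM in the controls and at 0.31 under IL-27. It had the largest difference of the 10 genes, -1.49, and also the largest between the controls, -0.26. The IL-27 value corresponds to an estimated 16 fragments (95% exact Poisson interval 9.1 to 26) against 154 and 122, so the 11.5% that remained has a counting interval from 6.60% to 19.4%. Because the value is low, the log2 difference depends on the pseudocount and reached -3.07 with 0.01 in place of 1.

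A promoter of Cd36 is shown because Cd36 differed most and its window was the 1 of 11 that held a direct repeat of the nuclear receptor hexamer. That window lies inside the Cd36 gene, which on the minus strand begins at 17888959, so any start further upstream was not searched. RefSeq promoters (GRCm38.p6, 250 bases before to 50 after a start) were at hand for 6 of the 10 genes, 11 windows in all, for Apoe, Abca1, Cd36, Nr1h3, Pltp and Pparg. The hexamer AGGTCA was searched on both strands, alone and as a direct repeat with at most 1 mismatch in each copy and a spacing of 4 bases (the LXR type) or 1 base (the PPAR type). The exact hexamer was found in 3 of the 11 windows, those of Cd36 and 2 of Pparg, against 16.3% of 32851 promoters. The LXR type repeat was in 0 of 11, against 1.75% of all promoters, and the PPAR type in 1 of 11, against 2.40%. That match lies on the reverse strand of the Cd36 window (minus strand of chromosome 5, chr5:17835847-17836146), from base -63 to base -51 relative to the start, and its copies are in capitals. A match of letters is a description and not a bound site.
Cd36 promoter: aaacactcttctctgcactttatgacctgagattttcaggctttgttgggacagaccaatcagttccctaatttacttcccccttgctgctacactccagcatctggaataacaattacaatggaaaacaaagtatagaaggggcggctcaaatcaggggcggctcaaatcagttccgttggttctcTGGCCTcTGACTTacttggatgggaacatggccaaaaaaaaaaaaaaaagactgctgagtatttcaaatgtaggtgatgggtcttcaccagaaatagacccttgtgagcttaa

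Lpl (NCBI Gene 16956, chromosome 8 from 68880555 to 68906932) encodes lipoprotein lipase, which frees fatty acids from triglyceride-rich lipoproteins. It had 13.44 and 12.70 FPKM in the controls and 4.28 under IL-27. The difference of -1.41 compares with -0.08 between the controls, and the single IL-27 value lay below both control values. Stretches of at most 227 nt of its transcript resemble Trim5 and Vmn2r120.

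The fatty acid-binding proteins carry fatty acids through the cytosol, and the 2 measured here behaved unlike each other. Fabp4 (NCBI Gene 11770, chromosome 3 from 10204342 to 10208616), the form typical of adipocytes and macrophages, had 10.66 and 10.13 FPKM in the controls and 3.90 under IL-27, a difference of -1.22. Its neighbour Fabp5 (NCBI Gene 16592, chromosome 3 from 10012585 to 10016610), the epidermal form, had 15.28 and 13.79 FPKM in the controls and 12.40 under IL-27. The Fabp5 difference of -0.21 was of a similar size to the -0.14 between its controls, and its counting interval, from 72.5% to 100.04% of the control mean, lay above that of Fabp4, from 28.1% to 49.3%. Fabp5 is less certain than the others, because 5 other genes in the GENCODE M21 annotation carry stretches of at least 200 nt with at least 90% identity to it, and how the authors' counting shared fragments among such copies was not stated.

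**Figure D2:**
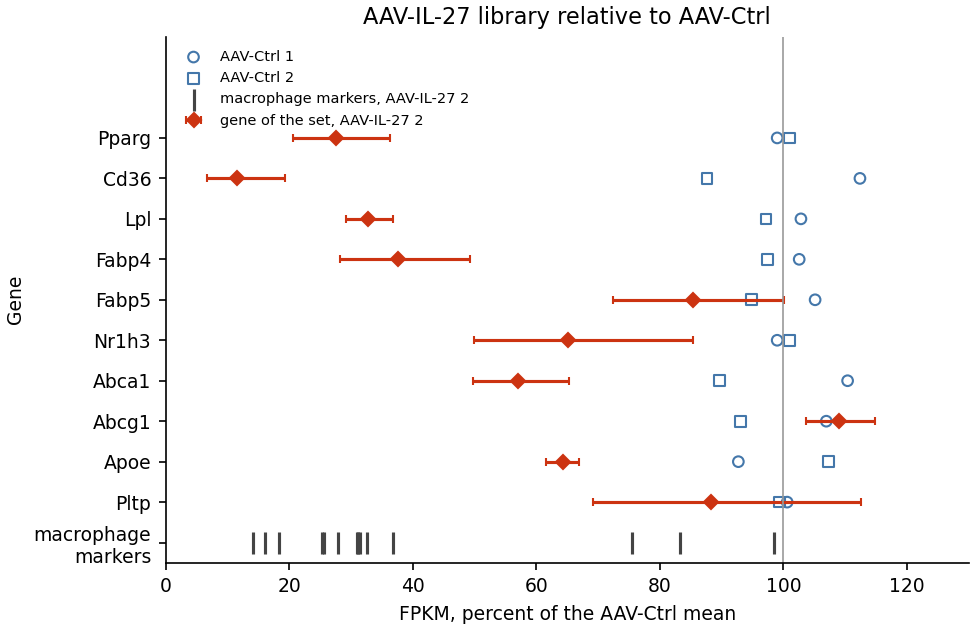
Expression in the IL-27 library as a percent of the control mean FPKM, for each gene (red diamonds) with 95% intervals that cover counting error only, beside the controls relative to their own mean (blue) and 14 macrophage markers in the IL-27 library (black ticks). Cd36, Pparg, Lpl and Fabp4 lie at 11.5% to 37.5%, with Cd36 to the left of every macrophage marker, and the other 6 genes lie at 57.0% to 109.0%.

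The genes of LXR and cholesterol efflux lay closer to the controls. Nr1h3 (NCBI Gene 22259, chromosome 2 from 91184061 to 91202829) encodes LXR alpha and had 3.42 and 3.49 FPKM in the controls and 2.25 under IL-27. The IL-27 value was below both, a difference of -0.45 against 0.02 between the controls, with an estimated 76 fragments against 115 and 120 and a counting interval from 49.98% to 85.3% of the control mean.

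Abca1 and Abcg1 encode the transporters that load cholesterol onto lipid-poor apolipoprotein A-I and onto mature high density lipoprotein. Abca1 (NCBI Gene 11303, chromosome 4 from 53030789 to 53159988) had 2.71 and 2.20 FPKM in the controls and 1.40 under IL-27, a difference of -0.52 against -0.21 between the controls. Abcg1 (NCBI Gene 11307, chromosome 17 from 31057694 to 31117984) was the more abundant, at 20.19 and 17.57 FPKM in the controls and 20.58 under IL-27. It was the 1 gene of the 10 whose IL-27 value lay above both control values, but its difference of 0.12 was smaller than the 0.19 by which the controls differed from each other. The counting interval of Abcg1, from 103.6% to 114.7% of the control mean, did not meet that of Abca1, from 49.8% to 65.3%. These intervals leave out the spread between mice.

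Apoe (NCBI Gene 11816, chromosome 7 from 19696244 to 19701310) encodes apolipoprotein E, which macrophages secrete as an acceptor of exported cholesterol. It had 199.97 and 231.47 FPKM in the controls and 138.56 under IL-27. The IL-27 value was below both, with differences of -0.53 from control 1 and -0.74 from control 2, while the controls differed by 0.21. Among the other 9129 genes that reached a mean FPKM of 1, those closest to Apoe in centred log2(FPKM + 1) over the 3 libraries were Mxd3, a repressor of the MYC network, Adk, the adenosine kinase gene, and Scpep1, a serine carboxypeptidase gene, at distances of 0.00466, 0.0115 and 0.0153. All were far less abundant, with Mxd3 at 2.37, 2.90 and 1.35 FPKM. With 3 libraries such likeness is common, and 121 genes lay within 0.1.

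Pltp (NCBI Gene 18830, chromosome 2 from 164839518 to 164857708), the phospholipid transfer protein that remodels lipoproteins, had 3.34 and 3.30 FPKM in the controls and 2.93 under IL-27. The difference of -0.14 exceeded the -0.01 between the controls, but the estimated 113, 114 and 99 fragments had overlapping Poisson intervals, so a difference was not detectable at this depth. Transcripts of Pltp and Ctsa overlap on opposite strands over 316 nt. Libraries were strand-marked, but whether counting used the strand was not stated.

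Arranged by role, an arrangement made after the values were seen, 4 of the 5 genes of PPARγ and fatty acid handling were lower, with differences from -1.49 to -0.21, and 0 of the 5 genes of LXR and cholesterol efflux, with differences from -0.63 to 0.12. Over all genes 2.32% were lower, so a count of 0 of 5 is near the background, and the roles were not tested against each other. They are not exclusive, since Lpl and Cd36 have also been described as LXR targets.

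**Figure D3:**
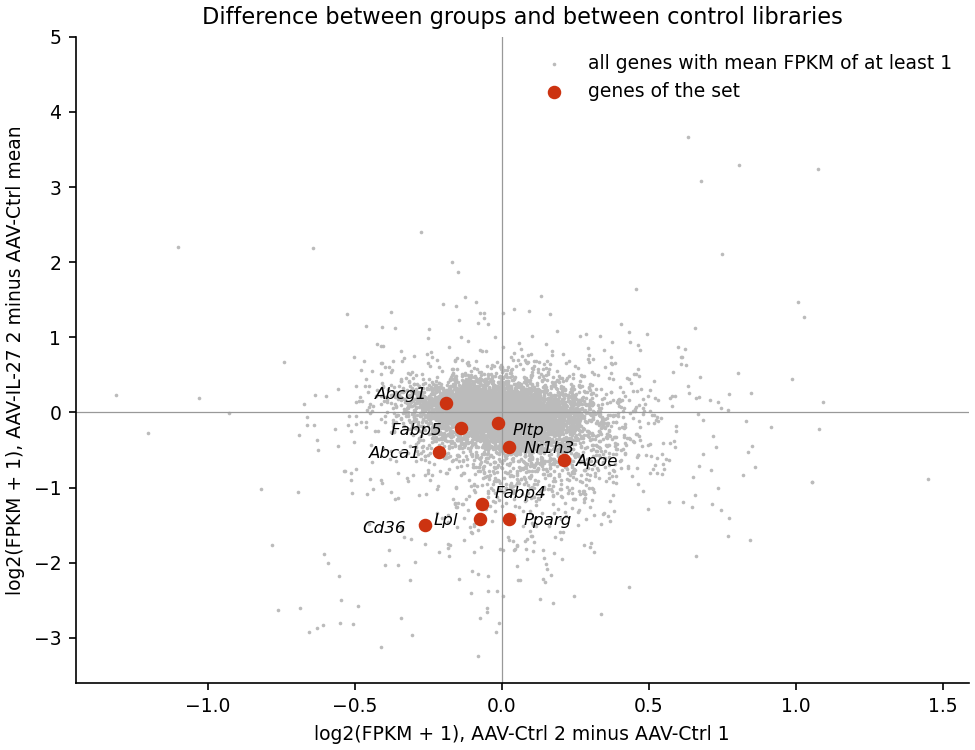
Difference of the IL-27 library from the control mean (vertical axis) against the difference between the controls (horizontal axis), both in log2(FPKM + 1), for 9130 genes in grey and the 10 lipid genes in red. Cd36, Pparg, Lpl and Fabp4 lie at -1.22 to -1.49 on the vertical axis and near 0 on the horizontal axis, where Cd36 is furthest out at -0.26.

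Most other genes of the same pathways were near their control level. Of 21 further genes of the LXR pathway, 18 reached a mean FPKM of 1, and 1 was lower and 1 higher, with a median difference of 0.01. The lower gene was Scd1, a fatty acid desaturase that LXR raises, at 1.51 and 1.71 FPKM in the controls and 0.20 under IL-27 (-1.12). The higher gene was Arl4c, which encodes a small GTPase and is also an LXR target, at 12.53 and 8.39 FPKM in the controls and 26.93 under IL-27 (1.31). The most abundant genes of this list, the lipoprotein receptor gene Apobr and the phosphodiesterase gene Smpdl3a, differed by 0.08 and -0.10. Nr1h2, which encodes LXR beta, had 57.21 and 59.65 FPKM in the controls and 62.51 under IL-27. It was well above Nr1h3 in every library, and its difference was 0.10.

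Genes of fatty acid storage and oxidation gave a similar count. Of 22 genes of PPARs, lipid droplets and fatty acids, 16 reached a mean FPKM of 1, and 0 were lower and 0 higher. These counts are near the shares over all genes, 2.32% and 0.307%. The list had a median of -0.01. Its range ran from -0.46 for Acadl, an acyl-CoA dehydrogenase, to 0.66 for Cpt1a, which admits fatty acids to mitochondria. The most abundant genes of the list were Ucp2, an uncoupling protein of the inner mitochondrial membrane, and Dgat1, which makes triglyceride. Ucp2 had 904.3, 907.1 and 939.1 FPKM, and Dgat1 169.0, 190.6 and 149.3 FPKM. Plin2, which coats lipid droplets and is a PPAR target, had 52.06 and 50.81 FPKM in the controls and 60.05 under IL-27. Ppard, another PPAR gene, had 16.88 and 15.92 FPKM in the controls and 15.03 under IL-27, above Pparg in every library. Genes of fatty acid uptake and activation in this list that reached a mean FPKM of 1 were not lower. Slc27a4, a fatty acid transporter, was at 111.0% and Acsl1, which couples fatty acids to coenzyme A, at 111.7% of the control mean. Genes too low to be called included Slc27a1, another transporter, at 0.34 and 0.36 FPKM in the controls and 0.13 under IL-27. Angptl4, also too low, had 0.51 and 0.67 FPKM in the controls and 0.14 under IL-27.

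Among genes of lysosomal cholesterol and its esterification, 0 of 14 that reached a mean FPKM of 1 were lower and 0 higher. Over all genes 2.32% were lower and 0.307% higher, so these counts are near the background. The median of the list was -0.10. The most abundant, the lysosomal membrane genes Lamp1 and Lamp2, differed by -0.18 and -0.16. Scarb1, the receptor that takes up cholesterol from high density lipoprotein, had the lowest log2 difference of this list, -0.92. It had 7.94 and 8.47 FPKM in the controls and 3.85 under IL-27, or 46.9% of the control mean. In percent the weaker gene Abcg2 fell further, to 40.2%, with 3.00 and 2.13 FPKM in the controls and 1.03 under IL-27. Cyp27a1 was at 57.7%, and the percentages of the list reached up to 125.5%.

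Several receptors that bind lipoproteins, dying cells or haemoglobin were lower. Of 12 genes, 11 were in the table, 8 reached a mean FPKM of 1 and 5 of these were lower, with a median of -1.26. The receptor genes Olr1 and Stab1 went the other way, at 121.8% and 132.7% of the control mean, and were not called higher. Axl and Mertk, which recognise dying cells, had differences of -2.23 and -1.60, with Axl at 43.15, 44.85 and 8.56 FPKM and Mertk at 7.02, 6.46 and 1.56. Cd163, the receptor for haptoglobin and haemoglobin, differed by -2.66, Lrp1, a receptor for Apoe-bearing lipoproteins, by -1.32, and Timd4, a phosphatidylserine receptor, by -1.20. Cd68, a lysosomal glycoprotein of macrophages and the most abundant gene of this list, had 117.8 and 109.4 FPKM in the controls and 86.4 under IL-27.

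**Figure D4:**
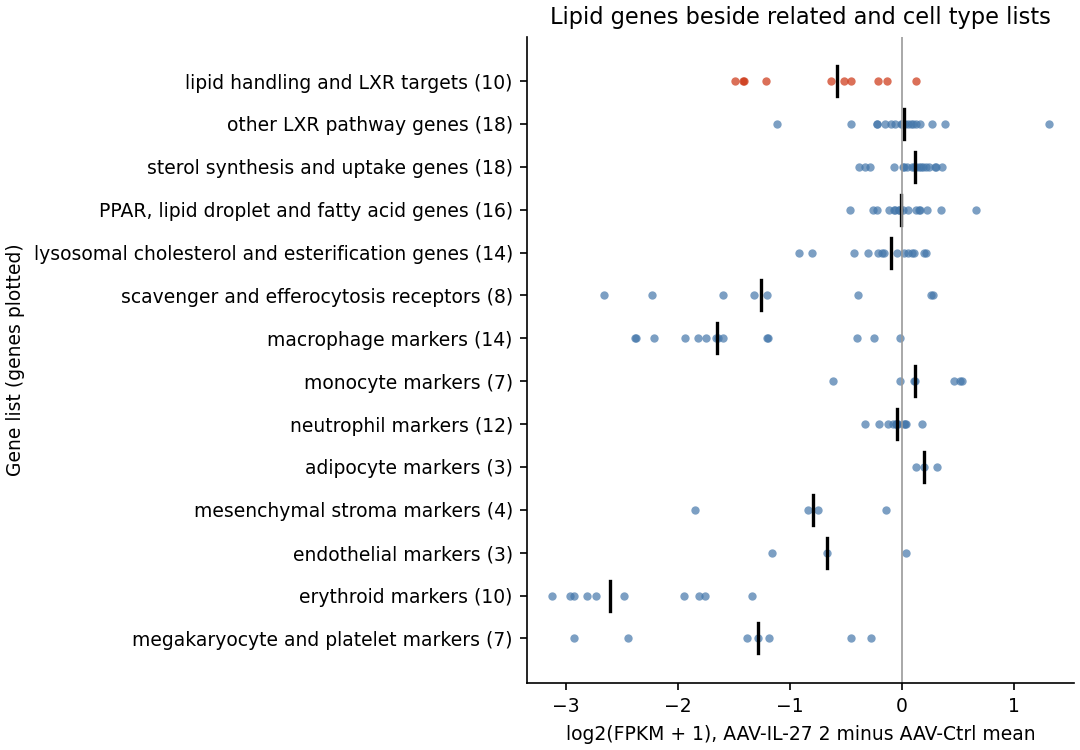
Difference of the IL-27 library from the control mean in log2(FPKM + 1) (horizontal axis) for genes that reached a mean FPKM of 1 in each list, with the number of genes plotted and a black bar at the list's median. The median is -0.58 for the 10 lipid genes (red), 0.01 for other LXR pathway genes, -1.65 for macrophage markers and -0.05 for neutrophil markers.

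Markers of several other cells moved with the lipid genes. The cells were neutrophils by their defining markers, with S100a9 at 68765 to 73508 FPKM, S100a8 at 38113 to 41371 FPKM and Ly6g at 711.8, 766.1 and 586.3 FPKM, and 0 of 12 neutrophil markers were lower. Of 14 macrophage markers, 11 were lower, and the summed FPKM of the 14 was 1042 and 1008 in the controls and 426.1 under IL-27. Of the lower markers, C1qa, C1qb, C1qc, Hmox1, Vcam1, Cd5l, Mrc1, Spic and Siglec1 were at 14.1% to 31.4% of the control mean. Pparg, Lpl and Cd36 were at 27.6%, 32.7% and 11.5%, Fabp4 at 37.5% and Apoe at 64.2%. The 3 macrophage markers that were not lower, Slc40a1, Adgre1 and Csf1r, were at 75.5% or more. Of 7 monocyte markers that reached a mean FPKM of 1, 0 were lower and 0 higher. Over all genes 2.32% were lower, so counts of 0 in such short lists are near the background. The sum of the monocyte list was 1117 and 1180 FPKM in the controls and 1239 under IL-27. It rested mostly on Ly6c2, at 1023 and 1086 FPKM in the controls and 1145 under IL-27. The weaker markers differed in direction. Ccr2, F13a1 and Ms4a6c were at 173.7%, 155.7% and 151.9% of the control mean, and Irf8 at 60.6%. Ccr2 had only 1.43 and 1.61 FPKM in the controls.

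Of 12 mesenchymal stroma markers, 4 reached a mean FPKM of 1, with a median difference of -0.79. Of these 1, Cxcl12, was lower, at 17.2% of the control mean. Sparc and Bgn, at 28.8% and 29.3% of the control mean, did not reach the threshold for a call. The collagen gene Col1a1 had 1.20 and 1.77 FPKM in the controls and 1.23 under IL-27, and the sum of the list was 12.8 and 16.1 FPKM in the controls and 4.25 under IL-27. Of 11 endothelial markers, 3 reached a mean FPKM of 1, with a median difference of -0.67. Of these 1, Stab2, was lower, at 19.1% of the control mean. Eng, at 38.3% of the control mean, did not reach the threshold for a call. Pecam1 had 4.21 and 4.04 FPKM in the controls and 4.25 under IL-27, and the list had a sum of 8.76 and 9.02 FPKM in the controls and 5.74 under IL-27. Of 8 adipocyte markers, 6 were in the table, 3 reached a mean FPKM of 1, and 0 of these 3 were lower, against 2.32% of all genes. The sum of the list, 94.5 and 97.9 FPKM in the controls and 108.2 under IL-27, rested on Adipor2 and Lipe, which many cells use. The defining adipocyte genes were near 0, with Adipoq at 0.81 and 1.02 FPKM in the controls and listed at 0 under IL-27, too low to be called, and Plin1 at no more than 0.03 FPKM in any library. All 10 erythroid markers were lower, with a sum of 8470 and 5813 FPKM in the controls and 994.9 under IL-27, and so were 4 of 7 megakaryocyte and platelet markers that reached a mean FPKM of 1, with a sum of 57.2 and 64.2 FPKM against 11.9. The most abundant erythroid markers, the alpha globin gene Hba-a1, whose reads a near-identical copy may share, and the haem synthesis gene Alas2, were at 14.0% and 11.9% of the control mean. The platelet chemokine genes Ppbp and Pf4 were at 10.2% and 11.9%. The part of these cells in the lower values of Cd36, Pparg, Lpl and Fabp4 was not tested.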

How the data were processed

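RNA-seq libraries of BM Ly6G+ myeloid cells were prepared from poly(A) RNA with dUTP strand marking and sequenced on a DNBSEQ platform, per the labels. The authors deposited FPKM per gene for 16073 rows, 1 of them without a gene symbol, on build mm10 per the submitters' processing notes. The aligner, counting tool and strand setting are not given in the sources used here. Left out was 1 column of values that is headed as an IL-27 library but fits none of the samples listed.

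Values were analysed as log2(FPKM + 1) with pandas 2.3.3, numpy 2.4.6 and scipy 1.17.1 under Python 3.11.15 (figures: matplotlib 3.10.9), for genes whose mean FPKM was 1 or more. A call needed a distance of 1 log2 unit or more from each AAV-Ctrl library, in 1 direction. With 1 AAV-IL-27 library no test was made. Depth was estimated from the steps of low FPKM values, of which 72.5% to 73.1% lay within 0.15 of a whole fragment, against 30% if spread evenly, so fragments are estimates for the shortest listed transcript and no count test was run. Intervals are 95% and cover counting error only. Near copies were sought with BLAST 2.17.0. The calls and the depth estimate were tested on simulated data.

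The members and lists were chosen with earlier results of these data known. The rule for named genes took all 10 members, the called genes and the 2 most abundant genes of each other list, defining markers, and the 3 genes nearest to Apoe. Some called genes of the macrophage, erythroid and megakaryocyte lists are given as counts or not reported here. Further genes (among them Nr1h2, Plin2, Ppard, Acadl, Cpt1a, Scarb1, Slc27a4 and Acsl1) were named after their values were seen. Alternatives were other pseudocounts, scalings, filters, thresholds and each AAV-Ctrl library left out.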

Additional observations from a re-analysis of the deposited data

How the results depend on the processing

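The median difference of the 10 genes, -0.58, was -0.70 with a pseudocount of 0.1, -0.72 with 0.01, -0.53 after median ratio scaling and -0.63 at a mean FPKM of at least 5, which 5 of the genes passed. Leaving out each AAV-Ctrl library gave -0.60 to -0.58. The 4 genes called lower became 2 (Fabp4 and Lpl) at a mean FPKM of at least 5, 5 (with Apoe) at a threshold of 0.5 log2 units and 0 at a threshold of 2, and the same 4 genes were called in every other setting. In all settings 0 of the 10 genes were higher, and the sign of each gene's difference was the same. Abcg1 ranged from 0.03 to 0.22 and Cd36 from -3.07 to -1.36. Of 102 alternative medians of the 13 other lists, 9 changed sign, all in the LXR pathway, sterol, PPAR, monocyte and neutrophil lists. Under the 2 rescalings the all-gene median shifted by 0.038 and 0.053. Over all genes, 212 were lower and 28 higher. These counts were 396 and 42 with a pseudocount of 0.1, 425 and 46 with 0.01, 294 and 40 without AAV-Ctrl 1, 243 and 49 without AAV-Ctrl 2, 93 and 22 at a mean FPKM of at least 5, 640 and 143 at a threshold of 0.5 and 39 and 5 at a threshold of 2. No paired analysis was possible because AAV-IL-27 has 1 library. Low genes are limited by depth, above all Cd36 with an estimated 16 fragments in AAV-IL-27.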

Other observations

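Genes of sterol synthesis and uptake, which the sterol sensor SREBP2 raises when cell cholesterol is low, differed between the controls, and their group difference depended on which control was used. Of 19 genes, 18 reached a mean FPKM of 1, and 0 were lower and 0 higher under IL-27. These counts are near the shares over all genes, 2.32% and 0.307%. The median difference was 0.12, against 0.26 between the controls. The median difference under IL-27 was -0.02 without control 1 and 0.26 without control 2. The summed FPKM of the list was 124.8 in control 1, 152.2 in control 2 and 152.5 under IL-27, so the IL-27 library lay beside control 2. Srebf2, which encodes SREBP2, had 27.48 and 33.17 FPKM in the controls and 39.01 under IL-27. Sc5d, an enzyme late in cholesterol synthesis, had 16.78 and 22.17 FPKM in the controls and 15.18 under IL-27.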
